A study of Mus musculus with 2 samples.

Results

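The genes described here encode the chains of collagens and laminins, the fibulins and fibrillins, fibronectin, the nidogens and 2 proteins of the SPARC family. They were chosen by gene symbol, as the array's own annotation gives it, and 65 of the 22146 named genes on the array belonged to them. The 65 genes were 43 collagen chains, 11 laminin chains, 6 fibulins and fibrillins, and 5 further glycoproteins (Fn1, Nid1, Nid2, Sparc and Sparcl1), read by 100 probes. RNA came from 2 dissociated hippocampal cultures of embryonic day 16.5 ICR mice, harvested after 12 days in vitro. One culture had been kept for its last 2 days in tetrodotoxin (TTX), a toxin that silences firing by blocking sodium channels, and the other was the control culture. The dose reads 2 µM in the series text and 2 mM in the source name. Both cultures had been given 5 µM Ara-C, a DNA synthesis inhibitor that limits dividing glia, 2 days after plating, and both grew in 5.5% serum.

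Each culture gave 1 single-colour array, so no difference below has a replicate check and no test between the cultures was possible. The number of arrays limits the precision. The errors given are technical only and come from within the 2 arrays. In a whole culture, fewer cells of a type and less RNA per cell cannot be told apart. All 10 neuronal markers examined were well above background on both arrays, with a summed signal of 140166 on the TTX array and 161432 on the control array, so RNA of neurons was present as the labels state.

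Collagens are trimers of chains wound around each other through a Gly-X-Y repeat, in which glycine recurs at a fixed step. Laminins are heterotrimers of an alpha, a beta and a gamma chain, and with type IV collagen, nidogen and perlecan they form basement membranes, the sheets that in the brain surround blood vessels and underlie the meninges. Fibulins and fibrillins are secreted glycoproteins of elastic fibres and basement membranes, fibronectin is a cell-adhesive glycoprotein bound by integrins, and SPARC proteins are matricellular proteins that in brain are known from glia, where Sparcl1 (hevin) promotes synapse formation and Sparc opposes it.

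The probes on which the results turn are shown next, as printed on the array, 5′ to 3′, with mm9 positions from the array annotation. Of the genes above background on both arrays, Fbln1 and Col22a1 were the 2 past 2-fold at their brightest probe. The first Fbln1 probe is at chr15:85081927-85081986 on the plus strand, the second at chr15:85115550-85115609 and the third at chr15:85115998-85116057. The second ends in the stop triplet TGA, in capitals, and of the third only the first 30 bases are shown. The Col22a1 probes are on the minus strand, with the brightest at chr15:71628906-71628965 and the other at chr15:71699345-71699404. Bases 28 to 57 of the brightest are shown, with the hexamer AATAAA, the letters of the usual polyadenylation signal, in capitals. The Col25a1 probe at chr3:130270497-130270556, plus strand, is shown because it spells the collagen repeat: GG, the first letters of every glycine codon, recurs at every ninth base and is in capitals.
Fbln1 brightest probe: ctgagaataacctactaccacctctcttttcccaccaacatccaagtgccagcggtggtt
Fbln1 middle probe: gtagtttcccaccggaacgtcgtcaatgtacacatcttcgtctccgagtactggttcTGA
Fbln1 last probe: ttttttaaccaacggggctctttgtgtttc
Col22a1 brightest probe: tgtgagttgcaaAATAAAagttttcaatgg
Col22a1 other probe: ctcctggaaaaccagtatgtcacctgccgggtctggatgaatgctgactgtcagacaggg
Col25a1 repeat probe: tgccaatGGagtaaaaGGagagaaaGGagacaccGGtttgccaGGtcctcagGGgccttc

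The GG pattern filled 6 of 6 positions in the Col25a1 probe. Read on the probe strand, it filled every position in 2 of 68 collagen probes (2.94%) and in 5 of 30848 named probes (0.0162%). AATAAA on the same strand was found in 16 of 100 probes of the matrix genes (16%), against 13.4% of named probes. These are descriptions of the probe letters and show no site in use. Exon and UTR positions of the probes were not analysed here.

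Of the 65 genes, 46 were well above background on both arrays, against 63.3% of all named genes. Fbln7 was above background on the TTX array only, and Col10a1, Col6a3 and Lama1 on the control array only. Of all 22146 named genes, 371 with no probe above background on both arrays had one above it on TTX, and 720 on control. The remaining 15 were not well above background on either array: Col4a3, Col6a4, Col6a5, Col6a6, Col8a1, Col9a3, Col13a1, Col14a1, Col15a1, Col17a1, Col19a1, Col24a1, Col27a1, Col28a1 and Nid2. All but Nid2, a basement membrane glycoprotein, are collagen chains. Signals were low in much of the group. Of the 46 genes, 23 lay in the lowest 20% of signals of the measured genes and 12 in the next 20%, and the pooled SD of a spot's log2 difference was 0.27 and 0.13 in those ranges, against 0.06 in the highest 20%.

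Most of the 46 matrix genes had signals close to each other on the 2 arrays, and the departures were few. At the brightest measured probe, only Fbln1 passed 2-fold with a higher TTX signal, and only Col22a1 with a lower one. Col6a3 and Col10a1, above background on the control array only and so outside these 46, were lower with TTX by 2.79-fold and 6.61-fold. Over all 14016 measured genes, 2.08% were 2-fold higher, 3.4% were 2-fold lower and 5.47% were past 2-fold in either direction. The median log2 difference (TTX minus control) of the matrix genes was 0.18, against 0.01 over all genes, and 34 of 46 (73.9%) were above 0, against 51% of all genes. The differences were small in size: 42 of 46 (91.3%) were under 1.5-fold, against 83.7% of all genes. At 1.5-fold, 3 were higher (Fbln1, Col25a1 and Col12a1), where 7.62% of all genes were, and 1 was lower (Col22a1), where 8.66% were. Without Fbln1 and Col22a1 the median of the other 44 was still 0.18, and they ranged from -0.52 for Lama4 to 0.88 for Col25a1.

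**Figure D1:**
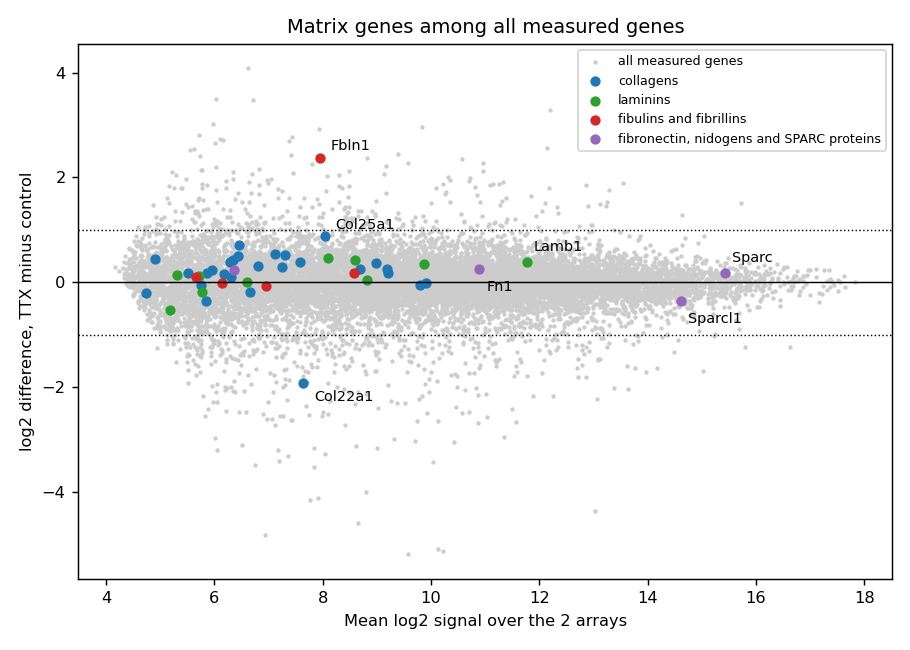
Log2 difference, TTX minus control (vertical axis), against the mean log2 signal over the 2 arrays (horizontal axis) for 14016 measured genes in grey, with 46 matrix genes coloured by family. Dotted lines mark 2-fold; Fbln1 lies above the upper line, Col22a1 below the lower one, and the other 44 between them.

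More matrix genes lay above 0 than below under each scaling tried. There were 37 of 46 matrix genes above 0 with 75th percentile scaling, where 46.6% of all genes were above 0, 37 of 46 with no normalization between the arrays, where 46.1% were, and 35 of 46 with spike-in scaling, where 42.3% were. Col2a1, Fbln2, Fbn2, Lama2 and Lama3, all near 0, changed sign between scalings. By signal level, 16 of the 23 matrix genes in the lowest 20% were above 0 and 10 of the 12 in the next, against 50.3% and 52.2% of all genes there. Against the spot SD, 15 of 46 were higher on the TTX array by over 1.96 SD and 2 were lower, where 28.2% of all genes were higher and 27.1% lower by that rule. By Feature Extraction's own error, 8 were higher by over 1.96 errors (Col5a3, Col9a2, Col12a1, Col20a1, Col25a1, Fbln1, Lama5 and Lamb2) and 1 lower (Col22a1), where 13.3% of all genes were higher and 13.9% lower. Both errors leave out the spread between cultures.

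Fbln1 encodes fibulin-1, a secreted calcium-binding glycoprotein of basement membranes and elastic fibres that binds fibronectin and laminin. Its brightest probe, the first shown above, had a signal of 566 on the TTX array and 109 on the control array, a 5.20-fold higher signal with TTX (log2 difference 2.38, Feature Extraction error 0.21). The second probe, 33.6 kb downstream, gave 87.5 on the TTX array and 17.1 on the control array (2.35, error 0.36). The third, 448 bases further on, gave 274 with TTX and 55.7 in control (2.30, error 0.22). All 3 probes were thus higher with TTX by nearly the same factor, and lay apart from each other both in the gene and on the array surface. Among all measured genes, 19 had a higher difference.

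The other fibulins and the fibrillins did not share that difference. Fbln2, found in basement membranes and elastic fibres, had a signal of 122 on the TTX array and 128 on the control array (-0.07). Fbln5, needed for elastic fibre assembly, had 405 with TTX and 358 in control (0.18). The fibrillins form the microfibrils of elastic fibres and bind latent TGF-beta complexes. Fbn1 had 52.5 on the TTX array and 49.3 on the control array (0.09), and Fbn2 had 70.8 with TTX and 71.2 in control (-0.01). These 4 differences were each under their Feature Extraction error, 0.21 to 0.25. Fbln7 had 29.2 on the TTX array and 11.9 on the control array, where it was not well above background. Taken against the lowest signal above background on the control array, 16.0, it was 1.83-fold higher with TTX at that probe. That bound leaves out the Feature Extraction error, which was 0.60 log2 there.

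Among collagens, 27 of 43 chains were measured, with a median difference of 0.25 and 20 of 27 above 0. The fibrillar collagens, which build the fibres of connective tissue, had 9 of 11 chains measured, a median of 0.16, and none past 2-fold. For type I collagen, Col1a1 had 169 on the TTX array and 139 on the control array (0.28), and Col1a2 had 82.2 with TTX and 76.4 in control (0.10). Col3a1, the type III chain, had 76.9 on the TTX array and 68.7 on the control array (0.16). Of type V collagen, which sets fibril diameter, 2 chains were higher with TTX and 1 lower.
Col5a1 had 218 with TTX and 167 in control (0.38), Col5a3 had 190 with TTX and 132 in control (0.52), and Col5a2 had 51.0 with TTX and 65.7 in control (-0.36). Col5a2 lies next to Col3a1 in the RefSeq gene table, and the signs of the 2 neighbours were opposite. The Col5a2 difference was within 1.96 of either technical error.

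Type IV collagen is the network collagen of basement membranes. Its chains pair along the genome: Col4a1 and Col4a2 start head to head, with promoter windows of 300 bases that overlap by 78 bases in the RefSeq table, and so do Col4a6 and Col4a5, whose windows do not overlap. Col4a1 was printed 10 times on each array, which made it the best measured gene of the group. Its spots averaged 966 ± 40.6 on the TTX array (SD over 10 spots, 899 to 1029) and 969 ± 45.7 on the control array (SD over 9 spots, 900 to 1032). After quantile normalization, the spots of the 2 arrays overlapped almost entirely. The mean difference over 9 spot pairs was -0.01 ± 0.08 (SD), with 6 pairs below 0. With other scalings the difference of the gene was -0.08 (75th percentile), -0.09 (no normalization between the arrays) and -0.12 (spike-in). The control spot marked as an outlier by Feature Extraction was left out, and the spots share 1 labelled RNA per array and are technical repeats.
Col4a2, its head-to-head partner, had 875 with TTX and 909 in control (-0.06, error 0.20). The other pair gave 125 with TTX and 101 in control for Col4a6 (0.31), and 94.5 with TTX and 70.1 in control for Col4a5 (0.43). A dimmer second Col4a6 probe gave -0.21, so the sign of that gene was not settled between its probes. Col4a4 had 24.9 on the TTX array and 28.7 on the control array (-0.20, error 0.36). Col18a1, the chain from which endostatin is cut, had 453 with TTX and 379 in control (0.25), and its second probe gave 0.35.

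**Figure D2:**
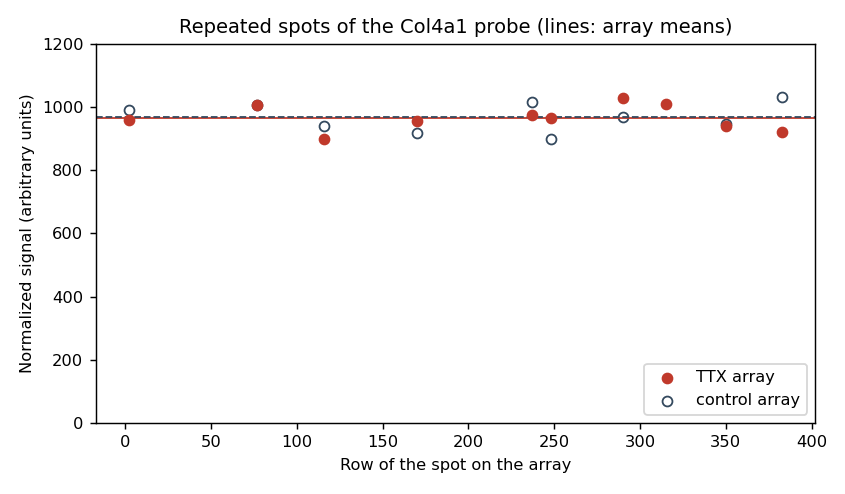
Normalized signal of each spot of the Col4a1 probe (vertical axis, arbitrary units) by its row on the array (horizontal axis), with filled points for the TTX array, open points for the control array, and lines at the array means of 966 and 969. After quantile normalization, the points of both arrays lie between 899 and 1032 at every row, with no separation of the arrays.

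Type VI collagen forms beaded filaments next to basement membranes. Col6a1 had 635 on the TTX array and 535 on the control array (0.25, error 0.20). Its neighbour in the genome, Col6a2, had 35.1 with TTX and 25.9 in control (0.44, error 0.31). Col6a1 exceeded 1.96 spot SD, while neither exceeded 1.96 Feature Extraction errors. Col6a3, the large chain that joins these 2 in the classical trimer, had the opposite sign. At its only probe it had 20.2 on the TTX array, not well above background, and 56.2 on the control array. By the plain ratio of these signals it was 2.79-fold lower with TTX (Feature Extraction error 0.42 log2). The 3 neighbouring chains Col6a4, Col6a5 and Col6a6 were not well above background on either array. Col10a1, the network collagen of growth plate cartilage, had 22.5 on the TTX array, not well above background, and 149 on the control array. By the plain ratio its signal was 6.61-fold lower with TTX (Feature Extraction error 0.36 log2), at its only probe, which has 1 spot.

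The FACIT collagens attach to the surface of fibrils, and 6 of 9 were measured, with a median of 0.44 and 5 above 0. Col22a1, known from tissue junctions such as that of muscle and tendon, was the exception. Its brightest probe had 102 on the TTX array and 388 on the control array, 3.79-fold lower with TTX (-1.92, error 0.21). The other probe, 70.4 kb away in the genome, had 78.8 with TTX and 87.1 in control (-0.14, error 0.22). The 2 probes differed by 1.78 log2, the widest spread among the 11 matrix genes with more than 1 measured probe. The mean over both probes was -1.03, and a rule asking every probe to pass 2-fold left Col22a1 out. Over all measured genes, 102 had a lower difference than its brightest probe.
Of the other FACIT chains, Col12a1 had 113 with TTX and 68.4 in control (0.72), and Col20a1 had 168 with TTX and 115 in control (0.55), with 0.66 at its second probe. Col16a1 had 577 with TTX and 445 in control at its brightest probe (0.37), but -0.38 at its second, so its sign was not settled. Col25a1 is a transmembrane collagen made by neurons. It had 357 on the TTX array and 194 on the control array at its brightest probe (0.88, error 0.21). The probe with the GG pattern had 40.3 with TTX and 29.5 in control (0.45, error 0.33), and another measured probe gave -0.02. Of its measured probes, the brightest alone was higher by over 1.96 Feature Extraction errors. The remaining 8 measured collagen chains, Col2a1, Col7a1, Col8a2, Col9a1, Col9a2, Col11a1, Col11a2 and Col23a1, lay between -0.18 for Col11a1 and 0.50 for Col9a2.

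**Figure D3:**
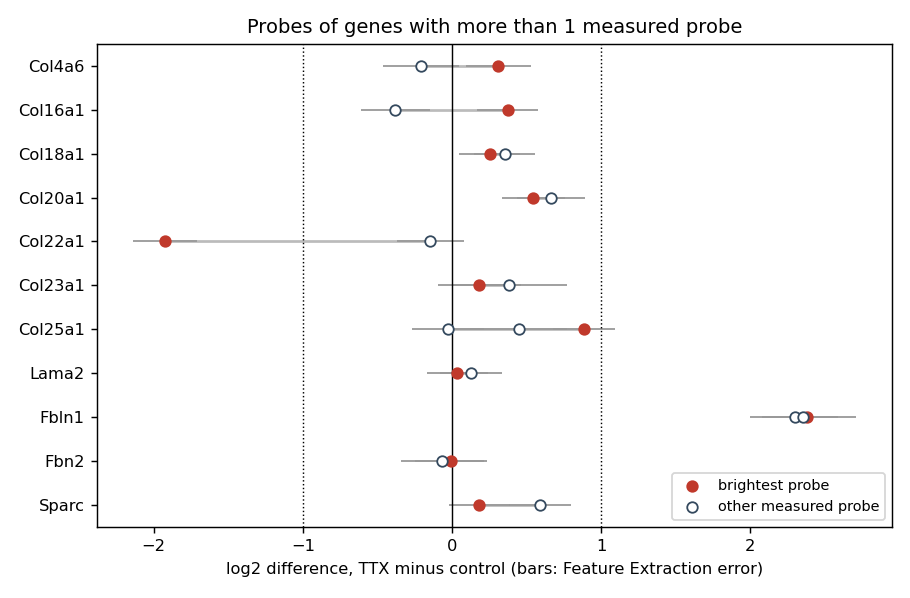
Log2 difference, TTX minus control (horizontal axis), of every measured probe of the 11 matrix genes with more than 1, with the brightest probe filled, other probes open, and bars for the Feature Extraction error. The 3 Fbln1 probes lie together between 2.30 and 2.38, and the 2 Col22a1 probes lie apart at -1.92 and -0.14.

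Across these 11 genes the median range between probes was 0.20, as it was over the 4124 genes of the whole array with more than 1 measured probe. In 7 of 11 the range was under 0.5, and in 8 of 11 all probes had the same sign.

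Laminin chains showed no difference of 2-fold, with 10 of 11 measured, a median of 0.13 and a range from -0.52 to 0.47. The beta-1, beta-2 and gamma-1 chains, which occur in many laminin trimers, were among those higher with TTX. Lamb1 had 3978 on the TTX array and 3047 on the control array (0.38), and Lamb2 had 449 with TTX and 336 in control (0.42). Lamc1, the gamma chain of most laminins, had 1060 with TTX and 830 in control (0.35). Lama5, the alpha chain of many mature basement membranes, had 325 with TTX and 234 in control (0.47). All 4 exceeded 1.96 spot SD, while Lama5 and Lamb2 alone also exceeded 1.96 Feature Extraction errors.
The alpha chains did not share 1 direction. Lama2, the chain of muscle, nerve and brain vessel basement membranes, had 455 on the TTX array and 444 on the control array (0.04), and Lama3 had 97.5 with TTX and 97.1 in control (0.01). Lama4, an alpha chain of vessel walls, had 30.4 with TTX and 43.7 in control (-0.52, error 0.31). Lama1 is the alpha chain of the early embryo and the meningeal surface. It had 18.2 on the TTX array, not well above background, and 32.3 on the control array. Taken against the lowest signal above background on the TTX array, 19.6, it was 1.64-fold lower with TTX. That bound leaves out the error, and the plain log2 difference, -0.83, was within 1.96 Feature Extraction errors (error 0.51).
Lamb3, a beta chain of epithelial laminin, had 41.7 with TTX and 37.7 in control (0.14). Lamc3, a gamma chain, had 51.0 on the TTX array and 58.2 on the control array (-0.19). Both differences were below their errors, 0.29 for Lamb3 and 0.25 for Lamc3.

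Fn1 had a signal of 2073 on the TTX array and 1740 on the control array (0.25, error 0.20), and was between 0.10 and 0.14 with spike-in scaling, 75th percentile scaling or no normalization between the arrays. Nid1, which links laminin to type IV collagen, had 89.1 with TTX and 76.0 in control (0.23, error 0.23). The 2 SPARC family genes differed in sign. Both differences exceeded 1.96 spot SD, but neither exceeded 1.96 Feature Extraction errors. Sparc had 46928 on the TTX array and 41357 on the control array (0.18, error 0.20), with 0.59 at a dimmer second probe. It ranged from 0.11 to 0.39 over the settings tried. Sparcl1 had 22142 on the TTX array and 28368 on the control array (-0.36, error 0.20), and ranged from -0.46 to -0.35 over the settings tried.

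**Figure D4:**
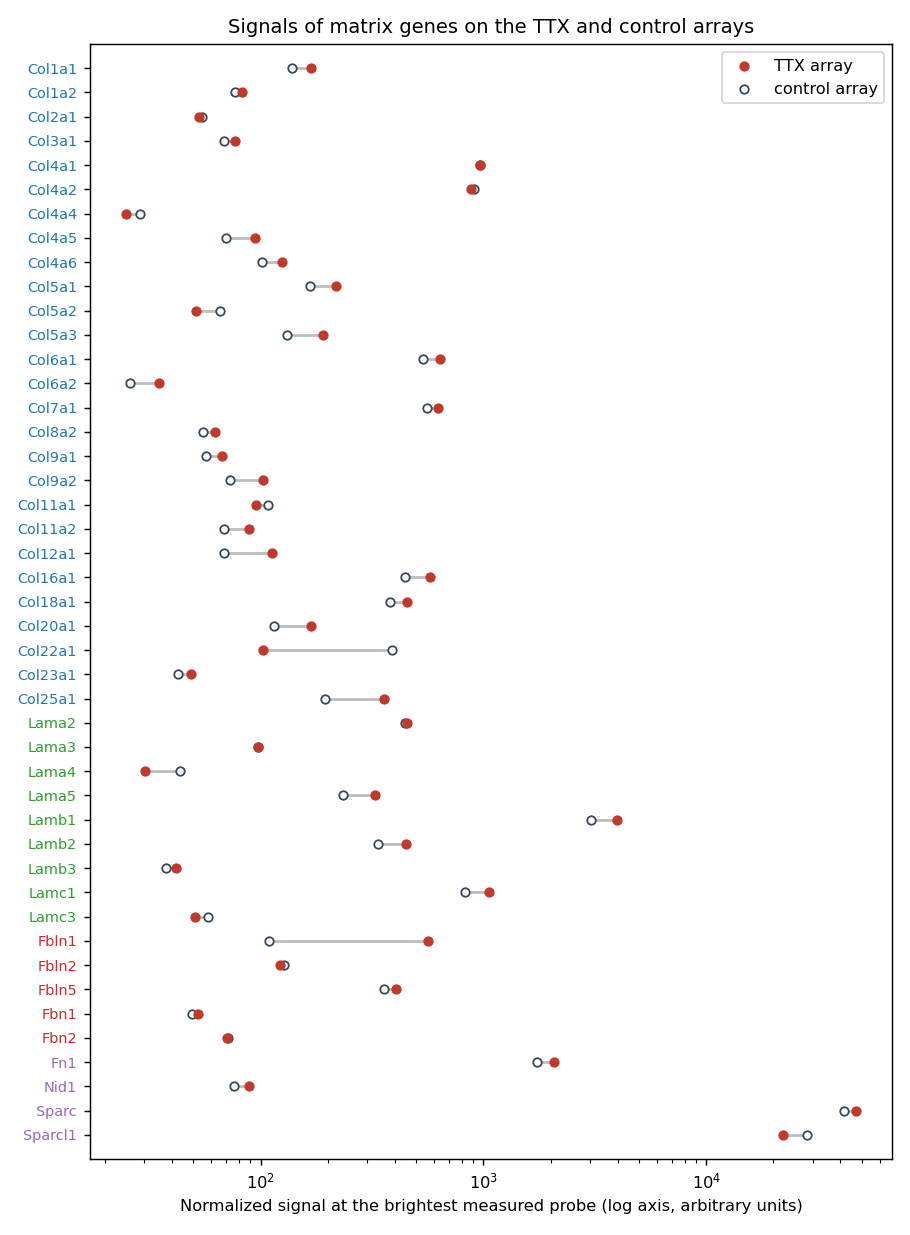
Normalized signal at the brightest measured probe (log axis, arbitrary units) of 45 matrix genes, with filled points for the TTX array and open points for the control array, and gene names coloured by family. Points of most genes lie close together, Fbln1 is furthest right on the TTX array relative to control, and Col22a1 furthest left; levels of different probes are not comparable with each other.

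**Figure D5:**
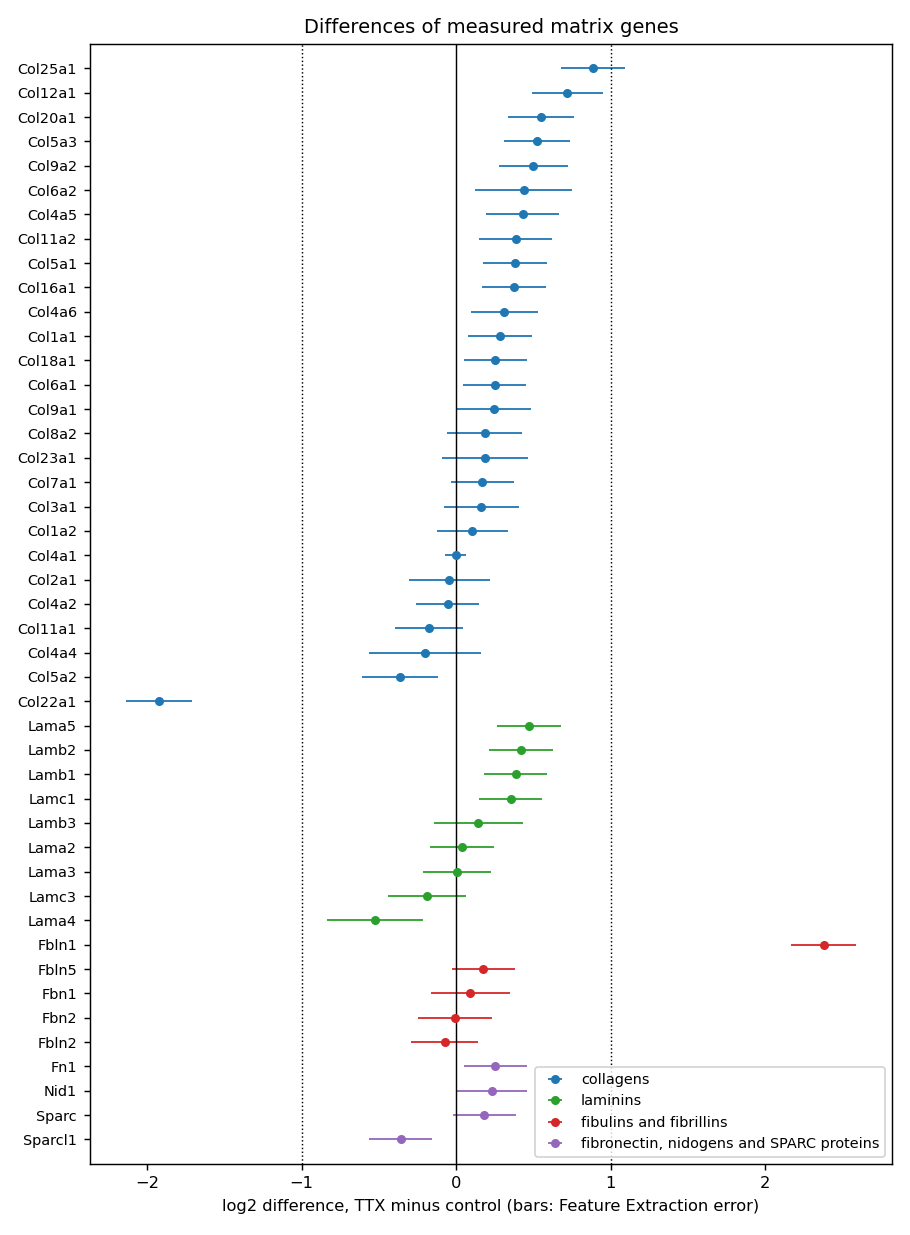
Log2 difference, TTX minus control, of the same 45 genes, sorted within family, with bars for the Feature Extraction error and dotted lines at 2-fold. Most collagen and laminin points lie between 0 and 0.5, with Fbln1 at 2.38 and Col22a1 at -1.92.

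Genes that make, bind or regulate the matrix gave a mixed picture. Their lists were written with earlier results of these data known. For the counts below, 2.08% of all measured genes were at least 2-fold higher and 3.4% at least 2-fold lower. Of 29 genes of collagen processing, 24 were measured, with a median of 0.22, 16 above 0 and none past 2-fold. The widest of them were Pcolce, an enhancer of procollagen C-proteinase (450 with TTX, 883 in control, -0.97), its relative Pcolce2 (97.6 with TTX, 51.9 in control, 0.91), and the procollagen N-proteinase Adamts3 (81.9 with TTX, 151 in control, -0.88). Of 26 matrix receptors, 21 were measured, with a median of -0.02, 1 at least 2-fold higher and 3 lower. The 3 lower ones were Itga11, the alpha chain of a collagen-binding integrin (29.0 with TTX, 85.5 in control, -1.56), Itgb3, a beta chain of fibronectin- and vitronectin-binding integrins (67.0 with TTX, 165 in control, -1.30), and the collagen-binding kinase Ddr2 (92.9 with TTX, 221 in control, -1.25). The higher one was Itga9, another integrin alpha chain (223 with TTX, 95.6 in control, 1.22).
Of 24 other proteins of basement membranes and elastic fibres, 18 were measured, with a median of 0.34, 2 at least 2-fold higher and 2 lower. Emilin2, an elastic fibre glycoprotein, had 601 with TTX and 168 in control (1.84), and the microfibril protein Mfap2 had 1182 with TTX and 557 in control (1.09). Fras1, a basement membrane protein of embryonic epithelia, had 290 with TTX and 650 in control (-1.16), and Ntn4, a laminin-related netrin of basement membranes, had 30.3 with TTX and 63.5 in control (-1.07). Of 15 genes of TGF-beta signalling, a known inducer of matrix genes, 14 were measured, with a median of 0.48, 1 at least 2-fold higher (the receptor Tgfbr1, 185 with TTX and 56.6 in control, 1.71) and 1 lower (the receptor Tgfbr2, 157 with TTX and 337 in control, -1.10). Tgfbi, a secreted matrix protein induced by TGF-beta, had 133 with TTX and 71.9 in control (0.89).

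Marker lists of cell types that can make matrix had medians of both signs at the main settings, and their part in the results above was not tested. Of 8 mural cell markers, 5 were measured, all 5 were above 0 with a median of 0.42, and their summed signal was 2968 on the TTX array and 2279 on the control array. Of 9 astrocyte markers, 8 were measured, 6 above 0 and 1, Slc1a2, at least 2-fold lower (-1.05), with a median of 0.32 and a summed signal of 18410 with TTX and 13451 in control. Of 8 microglial markers, 7 were measured, 5 above 0, with a median of 0.36 and a summed signal of 21362 with TTX and 19211 in control, of which the Itgam probe gave 20323 with TTX and 18151 in control. Fibroblast or meningeal markers were mostly not well above background on both arrays: 4 of 10 were measured, with a median of -0.09 and a summed signal of 773 with TTX and 675 in control, and Lum, Pdgfra, Igf2, Slc6a13, Prrx1 and Aldh1a2 were not.
Of 8 endothelial markers, 3 were measured, all below 0 with a median of -0.21, which ranged from -0.24 to 0.01 over the settings tried. Their summed signal was 2166 with TTX and 2552 in control, of which Kdr gave 2071 with TTX and 2445 in control. The defining Cdh5, Tek, Cldn5, Emcn and Tie1 were not well above background on both arrays. Of 7 markers of the oligodendrocyte lineage, 4 were measured, with a median of 0.01 and a summed signal of 1684 with TTX and 1488 in control. The 10 neuronal markers had a median of -0.38, with 3 above 0.

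Position on the array was also set beside these values. Dim spots that were at least 2-fold higher with TTX made up 5.17% in rows 1 to 192 and 2.03% in rows 193 to 384. The Fbln1 probes are in rows 377, 319 and 305, and the brightest Col22a1 probe in row 205. With probes of rows 193 to 384 only, an alternative chosen after seeing the data, 23 of the matrix genes were measured, 16 were above 0 with a median of 0.18, and 1 was 2-fold higher and 1 lower. Over all 8051 genes measured in those rows, the median was 0.00 and 49.6% were above 0.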

How the data were processed

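Total RNA of 1 TTX culture and 1 control culture was Cy3-labelled for Agilent 8x60K mouse arrays, per the labels. The authors' scanner files hold spot intensity, background-subtracted as processed signal, with marks for background, saturation and outliers, per the file headers. These name Feature Extraction 10.7.1.1, while the submitters' processing notes name 9.5.1.1. The deposited value table holds quantile-normalized intensity, and differences taken from it followed those used here (r = 0.9999 across 27398 measured probes).

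Processed signals of 59305 non-control spots were quantile normalized, as the series text names, without 170 outlier spots on TTX and 131 on control (0 were saturated), put on a log2 scale and averaged per probe. A probe counted as measured if, on each array, a share of 0.5 or more of its spots was marked well above background (52.2% of all spots were on TTX, 54.2% on control). A gene took its brightest measured probe. A gene above background on 1 array got a bound, its bright signal over the dim array's lowest signal above background (19.6 on TTX, 16.0 on control) or over the dim probe itself if that was higher. In the latter case, that of Col6a3 and Col10a1, the value is the plain ratio of the signals and not a lower limit. Neither form takes in the Feature Extraction error. The spot SD came from 253 probes printed about 10 times. Symbols of the chosen genes matched a RefSeq table of another assembly, used for names and neighbours only.

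The size rule was 2-fold. Named with values were genes past 2-fold, the 6 brightest, laminins, fibulins, fibrillins, glycoproteins, collagens I, III, IV, V and VI, genes whose probes differ by 1 log2 or more, bounds of at least 2-fold, and the 3 widest of each partner list; the further genes given with values were chosen after these were seen. One gene is counted but not reported by name here. The members and lists were chosen with earlier results of these data known. Alternatives covered scaling, background correction (normexp, offset 50, limma 3.58.1 in R 4.3.3), filters, probe rules, size rules and row position. The steps were tested on a simulated TTX array, made from the control array with known differences and the same noise at every signal level. It does not cover the wider spot spread of the dimmest genes or the spread between cultures. Python 3.11.15, numpy 2.4.6 and pandas 2.3.3 were used.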

Additional observations from a re-analysis of the deposited data

How the results depend on the processing

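The matrix genes' median difference lay between 0.11 and 0.28 over the settings tried. With no filter on dim probes, 5 of 65 genes were 2-fold higher and 4 lower; a 1.5-fold rule gave 3 higher; asking for at least 2 measured probes all past 2-fold gave 0 lower. The laminin median was 0.37 with the stricter filter on dim probes. The cause of these shifts was not tested, except that the filter and size rules change which genes are counted. Of 441 values of single genes, 415 moved by less than the spot SD and 26 by more; none past 2-fold changed sign. Fbln1 was lowest, 1.82, and Col22a1 -1.49, with normexp correction. Over all genes, normexp gave 147 genes 2-fold higher and 301 lower and no filter 1058 and 1372, against 291 and 476. Signals near background limit the 23 dimmest genes. No paired analysis was possible because each group had 1 array.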

Other observations

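A collagen gene fell outside the symbols used above because the array lists it as Emid2, which the RefSeq table gives as Col26a1; it was picked out after its values were seen. The probe at chr5:137217634-137217693 (mm9) had 300.0 on the TTX array and 1167 on the control array (log2 difference -1.96, Feature Extraction error 0.21). A second probe, shifted by a few bases at chr5:137217629-137217688 and printed in another row, had 309 with TTX and 1271 in control (-2.04, error 0.21). The 2 probes overlap and so read the same stretch of RNA. Of the relatives of the fibulins under other symbols, Efemp2 had 1313 with TTX and 1401 in control (-0.09), and Hmcn1 was not well above background on either array. Efemp1 was above background on the control array only. By the bound it was 1.68-fold lower with TTX, at a probe with a Feature Extraction error of 0.43 log2.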
